A study of Mus musculus with 7 samples.

Results

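Interferon and antiviral genes were compared between mouse embryonic stem cells (mESCs) and mouse embryonic fibroblasts (MEFs), and neither the labels nor the paper name an interferon or virus treatment. The 47 genes were taken as the rows of the gene count table whose symbol is on a list of interferon receptors, signalling proteins and interferon-stimulated genes, out of 55484 rows, and this rule uses symbols only. Fibroblasts of this kind are taken from the body of the mouse embryo and grown in culture, and mESCs are cultured cells of the early embryo that can form every tissue. The paper gives a C57/Bl6 background for the MEFs and mESCs in its methods for the chromatin libraries. Its methods for the RNA name no strain. The age of the embryos, the number of embryos or clones behind each culture and the culture medium are not given in the sources used here. The data were 4 MEF and 3 mESC RNA-seq libraries, made by priming at the poly(A) tail with molecular identifiers, and the question was how far the baseline levels differed between the cell types. The paper states a sort for Thy1 in MEFs and for Ssea1 and Epcam in mESCs for its chromatin libraries, and does not state it for the RNA. The count columns name the cell type but not the sample number, so the libraries are called MEF a to d and mESC a to c in column order. Every MEF column name also carries the letter O and every mESC column name the letter Y. The meaning of these letters is not given in the sources used here.

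Interferons are secreted proteins that bind receptors on the cell surface. The type I receptor is made of Ifnar1 and Ifnar2 and the type II receptor of Ifngr1 and Ifngr2, and Janus kinases on their inner side activate STAT transcription factors. These switch on a large group of interferon-stimulated genes, whose products bind viral RNA, block membrane fusion, deplete nucleotides or tag proteins with the ubiquitin-like protein Isg15. Many of these genes also have a baseline level without added interferon. Pluripotent stem cells are known for making and answering type I interferon only weakly, whereas fibroblasts respond to it well.

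Promoter sequences are shown for 6 effector genes that the results below return to, because genes of like annotation lay on opposite sides of the comparison. They come from the RefSeq promoter table on GRCm38.p6, run 5′ to 3′ on the strand of the gene, and cover 120 bases each. Capitals mark every match, on either strand, of GAAANNGAAA, the core of the interferon-stimulated response element, or of TTCCNGGAA, a site form bound by activated STAT dimers. In Isg15, Oas1a and Bst2 neighbouring matches overlap and form 1 run of capitals.
Isg15 (chr4:156200819-156200938, minus strand): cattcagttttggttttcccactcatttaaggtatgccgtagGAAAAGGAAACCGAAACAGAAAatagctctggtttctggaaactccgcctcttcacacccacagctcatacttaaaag
Gbp2 (chr3:142620543-142620662, plus strand): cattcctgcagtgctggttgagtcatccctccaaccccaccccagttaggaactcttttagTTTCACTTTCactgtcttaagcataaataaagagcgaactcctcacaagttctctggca
Ifitm3 (chr7:141010716-141010835, minus strand): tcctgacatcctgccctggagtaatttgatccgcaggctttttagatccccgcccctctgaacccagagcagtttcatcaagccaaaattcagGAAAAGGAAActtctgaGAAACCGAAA
Bst2 (chr8:71537499-71537618, minus strand): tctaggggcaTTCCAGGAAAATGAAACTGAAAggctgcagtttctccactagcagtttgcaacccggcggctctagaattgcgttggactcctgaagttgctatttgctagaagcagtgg
Oas1a (chr5:120907526-120907645, minus strand): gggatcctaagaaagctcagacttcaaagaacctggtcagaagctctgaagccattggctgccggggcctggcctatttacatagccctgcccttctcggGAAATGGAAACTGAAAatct
Ifitm1 (chr7:140967956-140968075, plus strand): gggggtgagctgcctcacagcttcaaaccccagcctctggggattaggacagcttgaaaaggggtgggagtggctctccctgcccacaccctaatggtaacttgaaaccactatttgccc

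The first 3 of these genes were lower in mESCs and the last 3 were higher. Isg15 held 3 matches of GAAANNGAAA, Bst2 and Oas1a held 2 each on the gene's own strand, and Gbp2 held 1 on the opposite strand. Bst2 also held 1 match of TTCCNGGAA, which ran into the first of the others. In Ifitm3 the 2 matches began 3 and 20 bases into the transcript, counted with the first transcribed base as 1. The window of Ifitm1 held no match of either motif, and it lies at a start inside the longer gene that GENCODE draws on the same build. The starts used for Gbp2 and Ifitm3 also lie inside the genes that GENCODE draws. The Gbp2 match itself lies inside that gene, which begins at base 142620602. Of the 42 members with an entry in the table, 18 (42.9%) held GAAANNGAAA in the 300 bases from 250 before to 50 after the start, where 3.99% of 27025 genes with an entry did. The motif stood in 6 of 18 members that were lower in mESCs, in 2 of 6 that were higher and in 8 of 14 that did not pass the test. TTCCNGGAA stood in 3 of 42 members, in Bst2, Ifit2 and Ifnar2, and in 1.35% of all genes with an entry. A match describes the letters only, and no binding was measured here.

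The libraries held between 6528643 and 11441278 counts, so that 3 counts, taken as the floor of a library, amounted to between 0.288 and 0.477 CPM. CPM values are counts brought to a common library total after TMM scaling, so they can be set side by side between libraries. The labelled cell types matched their markers, as 10 of 10 pluripotency genes were above every MEF library in all mESC libraries and 10 of 10 fibroblast genes were below. Of 16580 genes with enough counts to be tested, 47.9% differed between the cell types, 22.8% being higher in mESCs and 25% lower (quasi-likelihood test in edgeR, p-values adjusted by Benjamini-Hochberg over all tested genes, threshold 0.05). In 52.1% of tested genes every mESC library lay on the same side of every MEF library. The paper calls the samples of its transcriptional data biological replicates and gives n = 3, while 4 MEF libraries were used here. Which of the MEF libraries it means is not stated. Whether the libraries came from separate embryos, clones or cultures is not given in the sources used here, so the p-values measure the spread between these libraries.

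Of the 47 members, 41 could be tested. In mESCs 18 of these were lower, 7 were higher and 16 did not pass. The libraries did not overlap in 24 of the 41, which is to be read beside 52.1% of all genes tested. The median log2 fold change, given throughout as mESC minus MEF, was -0.80 over the members tested and 0.04 over all genes tested. The share called lower, 43.9%, is to be read beside 25% of all genes, and the share called higher, 17.1%, beside 22.8%. The members were chosen with earlier results of these data known, so these shares are a description only. A gene passed the filter on low counts if it was high in either cell type, so these counts describe the tested members and not all of the 47. Among signalling members 9 of 15 (60%) were lower and 1 (6.67%) was higher. Among effectors, the products that act on viruses or cells, 9 of 26 (34.6%) were lower and 6 (23.1%) were higher. The share of effectors called higher was thus near the 22.8% of all genes. In these bulk samples fewer cells expressing a gene and less RNA per cell cannot be told apart.

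**Figure D1:**
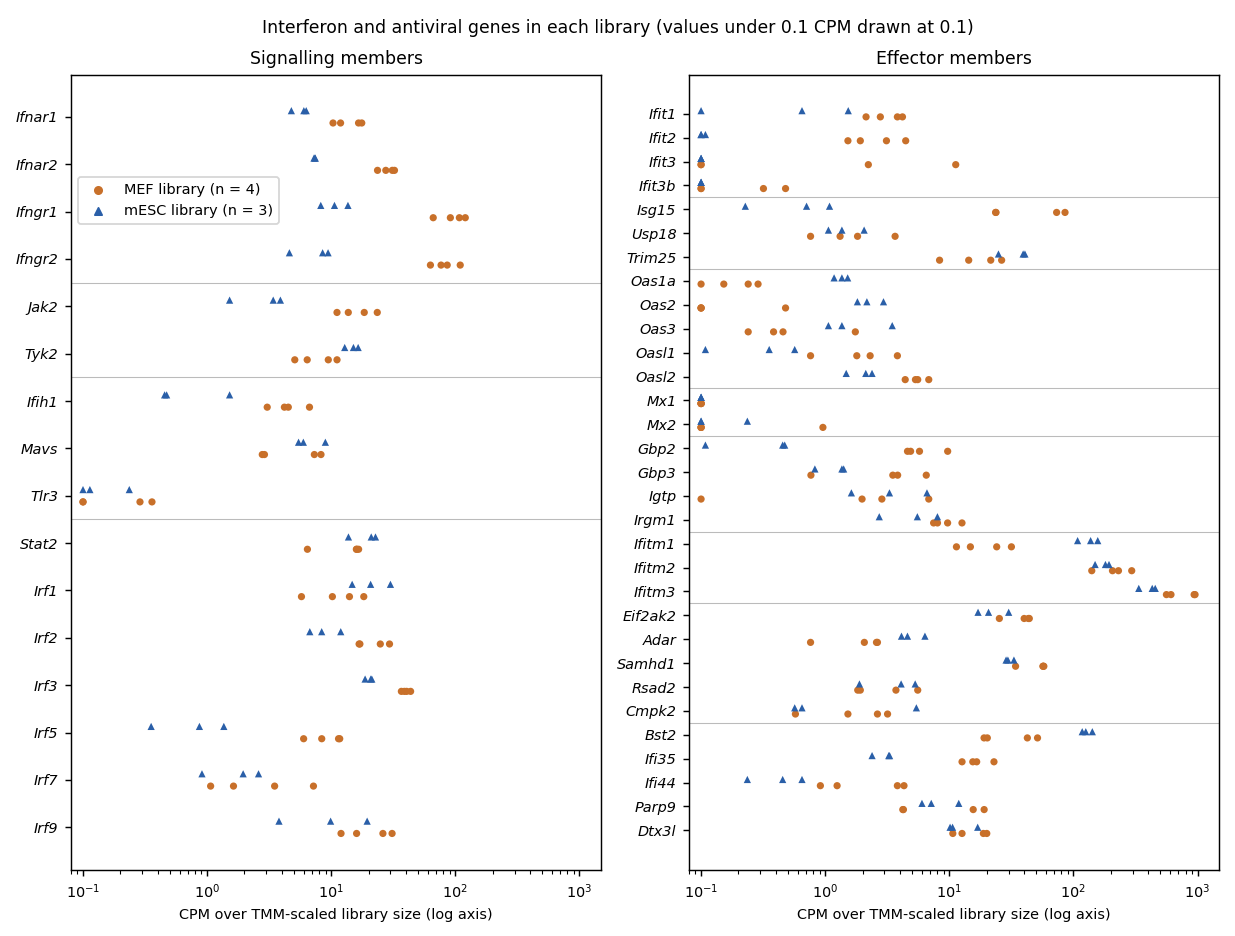
Levels of the 47 genes in each library, in CPM over the TMM-scaled library size on a log axis, with signalling members on the left and effectors on the right, grouped by role. Circles are the 4 MEF libraries and triangles the 3 mESC libraries, and values under 0.1 CPM are drawn at 0.1. The interferon receptors lie at lower levels in every mESC library, while Ifitm1 and Bst2 lie at higher levels.

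The interferon receptors were lower in mESCs for all 4 genes measured. Ifngr2 was at 86, 109, 76.7 and 63 CPM in MEFs a to d and 9.43, 8.52 and 4.6 CPM in mESCs a to c. Ifngr1 was at 120.2, 91.2, 108 and 66.3 CPM in MEFs a to d and 8.24, 13.6 and 10.6 CPM in mESCs a to c. Both chains of the type II receptor thus lay far below the fibroblast range in each mESC library, with log2 fold changes of -3.47 ± 0.30 (SE, edgeR adjusted p = 5.03e-06) and -3.15 ± 0.27 (SE, edgeR adjusted p = 4.67e-06). The chain Ifnar2 of the type I receptor had 23.6, 32.3, 31 and 27.5 CPM in MEFs a to d and 7.26, 7.39 and 7.43 CPM in mESCs a to c. The mESC libraries differed little among themselves in Ifnar2, and the log2 fold change was -1.96 ± 0.22 (SE, edgeR adjusted p = 3.81e-05). The other chain, Ifnar1, ran from 10.3 to 17.6 CPM in MEFs and from 4.77 to 6.29 CPM in mESCs, again with no overlap, and its log2 fold change was -1.31 ± 0.30 (SE, edgeR adjusted p = 0.00429). The call of Ifnar1 was lost only when tested against a fold change of 2 (edgeR adjusted p = 0.175).

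The receptor kinases moved in opposite directions. Jak2, which works at the type II receptor, had 11.1, 13.7, 23.5 and 18.4 CPM in MEFs a to d and 1.52, 3.41 and 3.89 CPM in mESCs a to c, a log2 fold change of -2.50 ± 0.41 (SE, edgeR adjusted p = 0.000527). Tyk2, which works at the type I receptor, had 5.08, 6.4, 9.47 and 11.1 CPM in MEFs a to d and 16.5, 12.8 and 15.1 CPM in mESCs a to c. Every mESC library was above every MEF library in Tyk2, by a small margin over MEF d, and the log2 fold change was 0.89 ± 0.31 (SE, edgeR adjusted p = 0.0376). That call did not hold when any of 5 libraries was left out (edgeR adjusted p = 0.0833 without MEF a, 0.0831 without MEF b, 0.113 without mESC a, 0.0531 without mESC b and 0.0888 without mESC c).

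Among the sensors of viral RNA, Ifih1, the gene of MDA5, had 4.51, 3.05, 4.19 and 6.68 CPM in MEFs a to d and 1.52, 0.454 and 0.472 CPM in mESCs a to c. The mESC libraries b and c rested on 4 counts each, and the log2 fold change of Ifih1 was -2.47 ± 0.58 (SE, edgeR adjusted p = 0.00498). Mavs, the mitochondrial adaptor downstream of MDA5, did not pass, with a log2 fold change of 0.36 ± 0.46 (SE, edgeR adjusted p = 0.561) and overlapping libraries. Tlr3, a receptor for double-stranded RNA in endosomes, reached at most 3 counts in a library and was not tested.

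Of the 7 transcription factors 3 were lower in mESCs and none was higher at the threshold. Irf5, which acts downstream of Toll-like receptors, had 11.7, 8.38, 5.99 and 11.4 CPM in MEFs a to d and 0.867, 1.36 and 0.354 CPM in mESCs a to c. The factor Irf3, which switches on interferon genes after RNA or DNA is sensed, had 38.9, 43.6, 40.5 and 36.7 CPM in MEFs a to d and 20.8, 18.7 and 21.2 CPM in mESCs a to c. Irf2, which counteracts Irf1 at many promoters, had 24.8, 16.8, 29.5 and 17 CPM in MEFs a to d and 6.72, 11.9 and 8.38 CPM in mESCs a to c. In none of these did the cell types overlap, and the log2 fold changes were -3.42 ± 0.51 (SE, edgeR adjusted p = 0.000266) for Irf5, -0.98 ± 0.17 (SE, edgeR adjusted p = 0.000848) for Irf3 and -1.29 ± 0.31 (SE, edgeR adjusted p = 0.00514) for Irf2. Irf3 stands out for its narrow spread, from 36.7 to 43.6 CPM over MEFs and from 18.7 to 21.2 CPM over mESCs. The calls of Irf2 and Irf3 were lost only when tested against a fold change of 2 (edgeR adjusted p = 0.197 and 0.666). About 14.1% of the exonic bases of Irf5 overlap the gene Tnpo3 on the opposite strand, and the strand setting of the counting is not given in the sources used here.

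The factors of the complex that answers type I interferon did not pass for either member in this list. Stat2 had a log2 fold change of 0.48 ± 0.34 (SE, edgeR adjusted p = 0.276). Irf9, its DNA-binding partner, had 12, 16, 30.9 and 26.1 CPM in MEFs a to d and 3.79, 9.88 and 19.5 CPM in mESCs a to c. The level of Irf9 in mESC c was above that in 2 MEF libraries, and the log2 fold change was -0.94 ± 0.50 (SE, edgeR adjusted p = 0.148). Without mESC c the log2 fold change of Irf9 was -1.64 and passed (edgeR adjusted p = 0.0249). Irf7, the interferon-induced factor that amplifies the response, had 1.63, 1.07, 7.19 and 3.5 CPM in MEFs a to d and 1.95, 0.909 and 2.6 CPM in mESCs a to c, and its log2 fold change of -0.88 ± 0.69 (SE, edgeR adjusted p = 0.328) did not pass. The MEF libraries of Irf7 spanned more than the mESC libraries did. Irf1, an activator induced by type II interferon, had a log2 fold change of 0.86 ± 0.38 (SE, edgeR adjusted p = 0.0859) and overlapped, and it passed in 3 of 13 alternatives, among them leaving out MEF d (edgeR adjusted p = 0.0378).

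Isg15, the interferon-induced ubiquitin-like protein, had the most negative log2 fold change among the members tested. It was at 23.6, 23.8, 73.2 and 85.6 CPM in MEFs a to d and 1.08, 0.227 and 0.708 CPM in mESCs a to c. The MEF libraries fell into a lower pair, a and b, and a higher pair, c and d, and all of them lay far above the highest mESC library. The log2 fold change of Isg15 was -6.22 ± 0.69 (SE, edgeR adjusted p = 3.44e-05). Its promoter, shown above, holds 3 overlapping matches of GAAANNGAAA. The protease Usp18, which takes Isg15 off proteins, had 1.82, 0.762, 1.32 and 3.66 CPM in MEFs a to d and 2.06, 1.36 and 1.06 CPM in mESCs a to c. Its libraries overlapped and the log2 fold change of -0.32 ± 0.62 (SE, edgeR adjusted p = 0.703) did not pass. Trim25, a ubiquitin ligase that acts on RNA sensing and on Isg15 transfer, had 8.35, 14.3, 21.6 and 26.4 CPM in MEFs a to d and 39.3, 40.7 and 24.9 CPM in mESCs a to c. It was called higher in mESCs at a log2 fold change of 0.99 ± 0.35 (SE, edgeR adjusted p = 0.0388) although mESC c lay below MEF d. The call of Trim25 was lost without MEF a (edgeR adjusted p = 0.0591), MEF b (0.0873), mESC a (0.116) or mESC b (0.117).

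IFIT proteins bind viral RNA at its 5′ end, and little or no RNA of their genes was counted in mESCs. Ifit2 had 20, 10, 26 and 28 counts in MEFs a to d and 1, 0 and 0 counts in mESCs a to c. That is 84 counts against 1, a ratio of 70.4 in favour of MEFs with a 95% counting interval of 12.3 to 2810.0, and a fitted log2 fold change of -5.71 ± 0.96 (SE, edgeR adjusted p = 0.000601). Ifit3 had 94 counts in MEF c, 14 in MEF d and 0 in the other 5 libraries. With 3 counts over the group as the floor, Ifit3 was at least 30.2-fold higher in MEFs over the summed libraries, and it was not tested because too few libraries had counts. Without MEF c, which held most of these counts, the bound was 5.31-fold. Ifit3b had 4 counts in MEF c, 2 in MEF d and 0 elsewhere. Of the 50-base sequences in the transcripts of Ifit3, 51.2% also occur in Ifit3b, so reads of the pair can be lost or split where only unique matches were counted. Ifit1 had 29, 14, 35 and 24 counts in MEFs and 6, 0 and 13 in mESCs, and its log2 fold change of -2.14 ± 0.82 (SE, edgeR adjusted p = 0.0535) missed the threshold although the libraries did not overlap. Ifit1 passed in 4 of 13 alternatives, among them DESeq2 (adjusted p = 0.023) and leaving out mESC c (edgeR adjusted p = 0.0245).

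The OAS family was divided. Oas enzymes make short oligoadenylates that switch on RNase L, and the genes of Oas1a and Oas2 were higher in mESCs at low levels. Oas2 had 0, 0, 4 and 0 counts in MEFs and 20, 16 and 25 counts in mESCs, which is 0, 0, 0.479 and 0 CPM and 2.17, 1.82 and 2.95 CPM. Oas1a had 3, 1, 2 and 0 counts in MEFs and 14, 12 and 10 counts in mESCs. No MEF library of Oas1a was above the floor of 3 counts, and 57.6% of the 50-base sequences of its transcripts are shared with Oas1g. The log2 fold changes were 4.05 ± 0.97 (SE, edgeR adjusted p = 0.00548) for Oas2 and 2.79 ± 0.72 (SE, edgeR adjusted p = 0.00827) for Oas1a. The fitted value of Oas2 ran from 3.56 to 7.27 over the alternatives and hung on MEF c, which held all of its MEF counts. Without MEF c, and with 3 counts over the group as the floor, Oas2 was at least 17.9-fold higher in mESCs. Oas3 had a positive log2 fold change of 1.52 ± 0.76 (SE, edgeR adjusted p = 0.127) that did not pass.

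The OAS-like genes went the other way. Oasl1, which binds RNA and is known to restrain Irf7 translation, had 2.3, 0.762, 1.8 and 3.82 CPM in MEFs a to d and 0.108, 0.568 and 0.354 CPM in mESCs a to c. The mESC libraries of Oasl1 held only 1, 5 and 3 counts, and the MEF libraries differed by more than 4 times among themselves. Its log2 fold change was -2.61 ± 0.77 (SE, edgeR adjusted p = 0.0162) and lost its call without mESC a (edgeR adjusted p = 0.0717) or mESC c (0.0553). Oasl2, at 4.41 to 6.83 CPM in MEFs and 1.48 to 2.38 CPM in mESCs, had a log2 fold change of -1.46 ± 0.40 (SE, edgeR adjusted p = 0.0107). Its call was lost only when tested against a fold change of 2 (edgeR adjusted p = 0.147).

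Among the GTPases of the guanylate-binding and immunity-related families, Gbp2 was lower in mESCs. It had 4.6, 4.88, 5.75 and 9.7 CPM in MEFs a to d and 0.108, 0.454 and 0.472 CPM in mESCs a to c, with 1, 4 and 4 counts in the mESC libraries and a log2 fold change of -4.13 ± 0.60 (SE, edgeR adjusted p = 0.000231). Gbp3 had 0.767, 3.51, 3.83 and 6.52 CPM in MEFs a to d and 1.41, 1.36 and 0.826 CPM in mESCs a to c. MEF a lay just below the lowest mESC library of Gbp3 and the other MEF libraries lay above the highest, and the log2 fold change was -1.58 ± 0.67 (SE, edgeR adjusted p = 0.0775). Without MEF a the value was -1.93 and passed (edgeR adjusted p = 0.0117). Igtp had 0.0959, 1.98, 6.83 and 2.86 CPM in MEFs a to d and 1.63, 3.29 and 6.61 CPM in mESCs a to c, a wide spread in both cell types. Its log2 fold change of 0.39 ± 0.87 (SE, edgeR adjusted p = 0.75) did not pass. Irgm1 overlapped as well, at -0.80 ± 0.40 (SE, edgeR adjusted p = 0.124). The dynamin-like GTPases Mx1 and Mx2 were not tested. GENCODE lists Mx1 as protein-coding and Mx2 as a polymorphic pseudogene, and the part of the strain background in their levels was not tested. Mx1 had 0 counts in every library, which allows up to 0.477 CPM in the shallowest, and Mx2 had 8 counts in MEF c, 2 in mESC c and 0 in the others.

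IFITM proteins sit in membranes and hinder the fusion of virus and cell. Their 3 genes lie between bases 140954837 and 141010770 of chromosome 7 (GRCm38) and differed in direction. Ifitm1 was at 11.4, 14.8, 24.1 and 31.6 CPM in MEFs a to d and 108, 157 and 138 CPM in mESCs a to c. Ifitm3 was at 561, 611, 939 and 955 CPM in MEFs a to d and 431, 336 and 456 CPM in mESCs a to c. Neither gene overlapped between the cell types, and by the fitted fold change Ifitm1 was 6.58 times as high in mESCs and Ifitm3 1.88 times as high in MEFs. The log2 fold changes were 2.72 ± 0.32 (SE, edgeR adjusted p = 4.7e-05) for Ifitm1 and -0.91 ± 0.21 (SE, edgeR adjusted p = 0.0048) for Ifitm3. The call of Ifitm3 was lost only when tested against a fold change of 2 (edgeR adjusted p = 0.819). Ifitm2 had 141 to 295 CPM in MEFs and 149 to 193 CPM in mESCs and a log2 fold change of -0.32 ± 0.23 (SE, edgeR adjusted p = 0.273), which did not pass. For Ifitm2, 48.5% of its 50-base transcript sequences occur in other genes, mainly Gm45717, so its counts are uncertain. Of the promoters shown above, that of Ifitm3 holds 2 motif matches and that of Ifitm1 none, and for both the start used lies inside the gene that GENCODE draws.

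Bst2, or tetherin, which holds budding virus particles at the cell surface, was higher in mESCs. It was at 20.2, 19.1, 42.5 and 51.4 CPM in MEFs a to d and 142, 118 and 126 CPM in mESCs a to c, with no overlap, and its log2 fold change was 1.95 ± 0.32 (SE, edgeR adjusted p = 0.000577). The MEF libraries of Bst2 again split into a lower pair, a and b, and a higher pair, c and d. Both the Bst2 promoter and the Isg15 promoter hold overlapping matches of GAAANNGAAA, while their genes differed in opposite directions between the cell types. Ifi35, an interferon-induced leucine zipper protein, went the other way, with 12.7, 16.6, 15.5 and 22.9 CPM in MEFs a to d and 3.25, 2.39 and 3.3 CPM in mESCs a to c and a log2 fold change of -2.49 ± 0.32 (SE, edgeR adjusted p = 9.57e-05). An antisense gene overlaps 16.8% of the exonic bases of Ifi35.

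The enzymes and kinases that act on RNA and nucleotides included 3 calls among 5 genes tested. Adar, which edits adenosine to inosine in double-stranded RNA, had 2.59, 0.762, 2.64 and 2.07 CPM in MEFs a to d and 4.12, 6.36 and 4.6 CPM in mESCs a to c. Eif2ak2, the kinase PKR that stops translation when bound to double-stranded RNA, had 40.1, 25.3, 44.1 and 43.4 CPM in MEFs a to d and 20.7, 17 and 30.1 CPM in mESCs a to c. Samhd1, which degrades the nucleotides that reverse transcription needs, had 57.1, 57.8, 56.8 and 34.2 CPM in MEFs a to d and 33.2, 29.7 and 28.7 CPM in mESCs a to c. Adar was higher in mESCs at 1.30 ± 0.47 (SE, edgeR adjusted p = 0.0431), and Eif2ak2 and Samhd1 were lower at -0.76 ± 0.26 (SE, edgeR adjusted p = 0.0346) and -0.76 ± 0.21 (SE, edgeR adjusted p = 0.0133). Adar and Samhd1 did not overlap and Eif2ak2 did. The gene Chrnb2 covers 16.8% of the exonic bases of Adar on the opposite strand. The call of Adar was lost in 8 of 13 alternatives, which included leaving out MEF b (edgeR adjusted p = 0.0666), MEF c (0.0501), MEF d (0.0712), mESC a (0.0657), mESC b (0.154) or mESC c (0.0819). That of Eif2ak2 was lost in 7, which included leaving out MEF a (edgeR adjusted p = 0.0633), MEF c (0.0788), MEF d (0.0708), mESC a (0.106) or mESC b (0.123). That of Samhd1 was lost in 2, of which 1 was the test against a fold change of 2.

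Rsad2, the radical enzyme viperin, and its neighbour Cmpk2, a nucleotide kinase, did not pass. Cmpk2 had 0.576, 1.52, 2.64 and 3.18 CPM in MEFs a to d and 0.65, 0.568 and 5.43 CPM in mESCs a to c, so that mESC c alone was above every MEF library. Its log2 fold change was 0.17 ± 0.85 (SE, edgeR adjusted p = 0.887), and that of Rsad2 was 0.22 ± 0.53 (SE, edgeR adjusted p = 0.766). Parp9 and Dtx3l, whose products form a complex that modifies histones and other proteins, overlap by 458 bases on opposite strands and did not pass either. Parp9 had 4.22, 4.27, 15.6 and 19.1 CPM in MEFs a to d and 7.15, 6.02 and 11.9 CPM in mESCs a to c, with MEFs c and d far above a and b, and a log2 fold change of -0.36 ± 0.55 (SE, edgeR adjusted p = 0.629). Dtx3l had -0.31 ± 0.31 (SE, edgeR adjusted p = 0.457). Ifi44 was not tested and had 13, 6, 36 and 24 counts in MEFs and 6, 4 and 2 counts in mESCs.

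**Figure D2:**
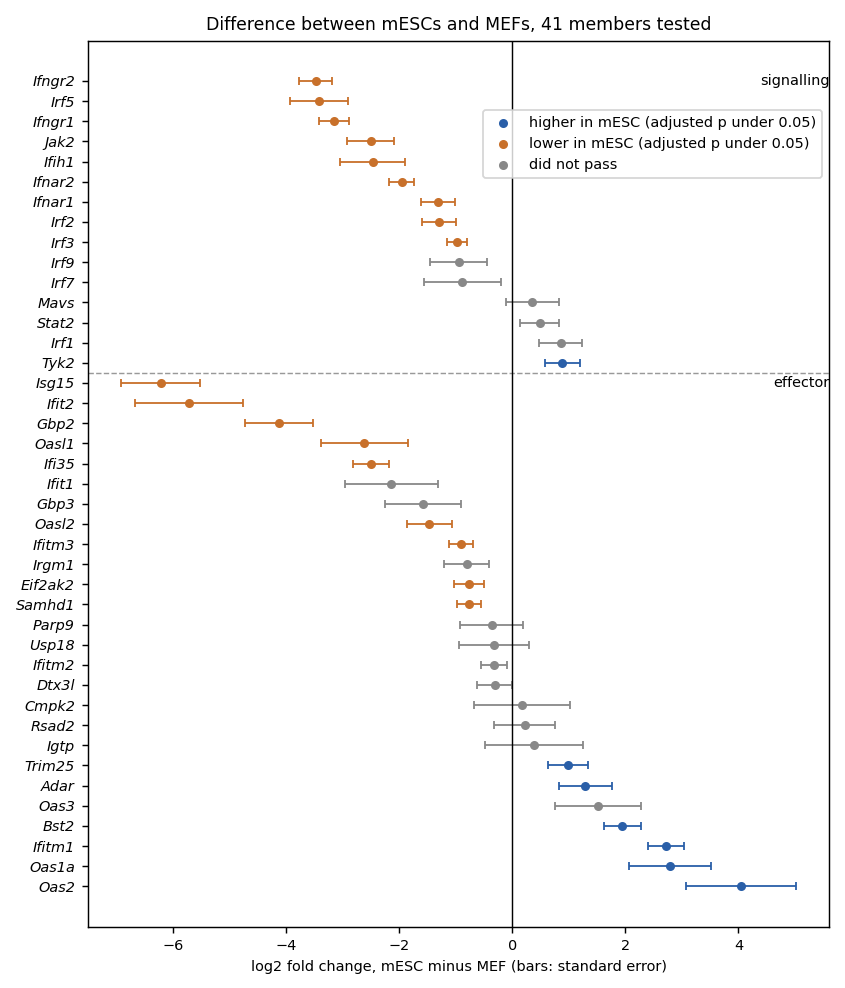
Log2 fold change (mESC minus MEF) of the 41 members tested, with standard errors from edgeR's fit as bars, signalling members above the dashed line and effectors below it. The filled circles are coloured by whether the adjusted p was under 0.05, and 18 lie on the lower side, from Isg15 at -6.22 upward, against 7 on the higher side, up to Oas2 at 4.05, a value that was 7.27 without MEF c.

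The effector genes also varied among the MEF libraries, and this was noticed after their values were seen. Of the 26 effectors with at least 10 counts over the MEF libraries, 19 (73.1%) were higher in both MEF c and MEF d than in MEF a and MEF b, where 22.9% of 16146 genes were. Among signalling members it was 6 of 15, and among the other pathway genes described below 19 of 58 (32.8%). The summed level of the effectors was 927.7 and 1043 CPM in MEFs a and b and 1614 and 1587 CPM in MEFs c and d, and the mESC libraries a to c, at 978, 932.2 and 1061 CPM, lay at the level of MEFs a and b. Without the IFITM genes and Bst2, which carry most of the counts, the sums were 194.1, 191.9, 314.2 and 318.4 CPM in MEFs a to d and 147.2, 140.2 and 148.3 CPM in mESCs a to c. The median SD of log2CPM over MEF libraries was 0.688 for effectors, 0.441 for signalling members and 0.376 for all genes tested, and over mESC libraries it was 0.397, 0.407 and 0.314.

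MEFs c and d also differed from a and b in genes outside the list. The 3 Y-linked genes Ddx3y, Eif2s3y and Kdm5d summed to 2.11, 0.61, 90.6 and 88.4 CPM in MEFs a to d and to 1.73, 1.82 and 35.9 CPM in mESCs a to c. The 10 fibroblast markers summed to 23690, 27750, 40720 and 32210 CPM in MEFs a to d. All of them except Col1a1 and Thy1 were higher in both MEF c and MEF d than in MEFs a and b. The 10 leukocyte markers summed to 36.9, 20.3, 74.9 and 74.9 CPM in MEFs a to d, and to 69.3, 75.8 and 86.1 CPM in mESCs a to c, where Laptm5 alone made up 52.6 to 62.4 CPM. In 5 of the 10 leukocyte markers (Ptprc, Laptm5, Tyrobp, Fcer1g and Lyz2) both MEF c and MEF d were above MEFs a and b. That order held in 22.9% of tested genes with at least 10 counts over the MEF libraries. Ptprc rested on 1, 6, 17 and 6 counts in MEFs a to d. Lyz2, a lysozyme of macrophages, had 6.62, 8.69, 32.7 and 35.8 CPM in MEFs, and Fcer1g, a signalling chain of myeloid receptors, had 0.576, 0.305, 5.99 and 10.3 CPM. Csf1r, the receptor of a macrophage growth factor, did not follow this order, with 22.6, 6.4, 17.3 and 12.9 CPM. None of the 10 leukocyte markers was at 0 in all libraries. Adgre1, the macrophage marker F4/80, was at 0.288, 1.52, 0 and 1.27 CPM in MEFs and at 0 in the mESC libraries. The Y-linked genes split the MEF libraries into the same pairs, a and b against c and d, as most effectors did. The part of these differences in the effector levels was not tested, and they cannot be told apart from each other here. The count of members lower in mESCs was 16 without MEF c and 16 without MEF d, against 18 with all libraries.

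**Figure D3:**
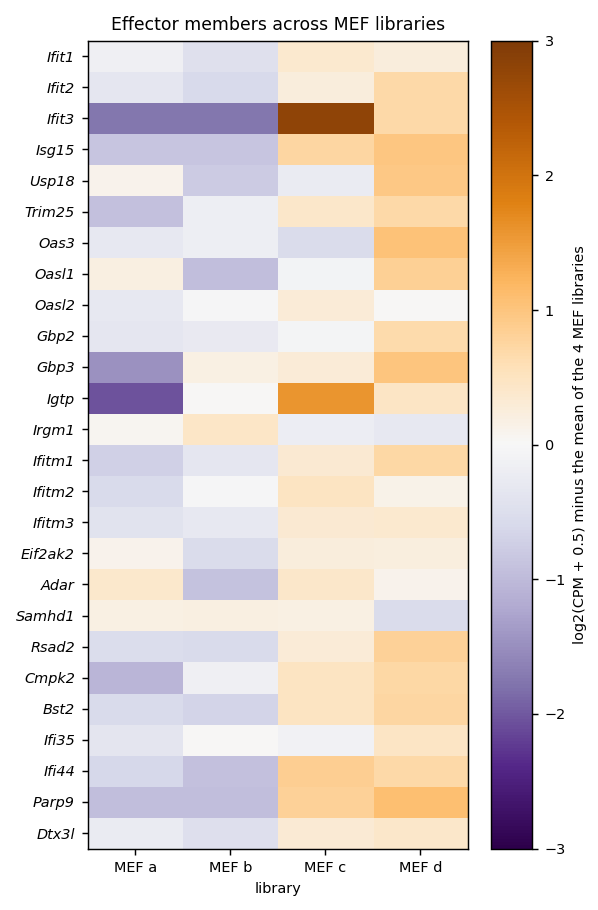
Deviation of the 26 effector genes with at least 10 counts over the MEF libraries from their own mean, as log2(CPM + 0.5) minus the mean of the 4 MEF libraries, with 1 column per library. Orange cells are above the mean and purple cells below it, and 19 of the 26 rows are higher in both MEF c and MEF d than in MEF a and MEF b.

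Other genes of the pathway were taken from a list of 78 symbols, of which 77 were in the table and 54 were tested. In mESCs 19 of these were lower and 12 were higher, and their median log2 fold change was -0.52. The shares were 35.2% and 22.2%, beside 25% and 22.8% of all genes tested. The 10 interferon ligand genes, which included Ifnb1, Ifng and 3 Ifna genes, had at most 3 counts in any library and 5 of them had 0 throughout, so none of these ligands was detectable above the floor in either cell type.

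Of the receptor and kinase genes of the wider list, 2 of 2 tested were lower in mESCs, and Ifnlr1 was not tested. Ifnlr1, a chain of the receptor for interferon lambda, had 0, 0, 1 and 0 counts in MEFs and 8, 22 and 1 counts in mESCs, a ratio of 37.0 in favour of mESCs with a 95% counting interval of 6.16 to 1510.0. Most of its mESC counts were in mESC b, and mESC c, at 0.118 CPM, was not above MEF c, at 0.12 CPM. The interval pools the libraries of a cell type and leaves out the spread between them. Jak1, the kinase common to both receptors, had 119, 114, 99.6 and 113 CPM in MEFs a to d and 37.5, 39.5 and 35.5 CPM in mESCs a to c. Its mESC libraries lay within a narrow range below all MEF libraries, and the log2 fold change was -1.57 ± 0.15 (SE, edgeR adjusted p = 1.13e-05). Of the feedback inhibitors, Socs3 had 11.5, 20.6, 12.5 and 27 CPM in MEFs a to d and 175, 184 and 156 CPM in mESCs a to c, and was higher in mESCs at a log2 fold change of 3.27 ± 0.28 (SE, edgeR adjusted p = 5.51e-06). Socs1 had 20.3, 20.7, 23.1 and 39.9 CPM in MEFs a to d and 3.9, 13.4 and 15.7 CPM in mESCs a to c. It was lower in mESCs at -1.24 ± 0.44 (SE, edgeR adjusted p = 0.037), a call that was lost without MEF c (edgeR adjusted p = 0.053), MEF d (0.0964), mESC a (0.0725) or mESC b (0.0533). The phosphatase Ptpn6 (SHP-1), which dampens Janus kinase signalling, was at 0.576, 0.457, 1.32 and 2.07 CPM in MEFs a to d and 8.78, 17 and 18.5 CPM in mESCs a to c, and was higher in mESCs at 3.76 ± 0.51 (SE, edgeR adjusted p = 0.000144).

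The nucleic acid sensors outside the main list differed in direction as well. Ddx58, the gene of the RNA sensor RIG-I, had 12.6, 14, 21.8 and 19.7 CPM in MEFs a to d and 34.7, 28.5 and 49.6 CPM in mESCs a to c. It was higher in mESCs at a log2 fold change of 1.14 ± 0.27 (SE, edgeR adjusted p = 0.0046), in the opposite direction to Ifih1. The call of Ddx58 was lost only when tested against a fold change of 2 (edgeR adjusted p = 0.347). Cgas, which senses DNA, had 43.3, 44.8, 35.8 and 43.6 CPM in MEFs a to d and 50.2, 43.4 and 44.5 CPM in mESCs a to c. Its libraries overlapped, with a log2 fold change of 0.14 ± 0.16 (SE, edgeR adjusted p = 0.526). Tmem173, the gene of STING, to which cGAS signals, was at 21.6, 17.7, 29 and 31.2 CPM in MEFs a to d and 2.06, 0.909 and 0.472 CPM in mESCs a to c and was lower in mESCs at -4.41 ± 0.46 (SE, edgeR adjusted p = 2.13e-05). The DNA sensor gene Aim2, which builds inflammasomes, had the largest positive log2 fold change on this list, 7.31 ± 0.45 (SE, edgeR adjusted p = 5.04e-07). It was at 0.863, 0.152, 0.839 and 0 CPM in MEFs a to d and 77, 84 and 94.5 CPM in mESCs a to c, and its MEF libraries held 9, 1, 7 and 0 counts.

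The most negative log2 fold changes on the wider list were those of Tlr4, the receptor for bacterial lipopolysaccharide, and of Ifi205 and Ifi204, of the same HIN-200 family as Aim2. Tlr4 had 97, 54, 33 and 21 counts in MEFs and 0, 1 and 2 in mESCs, a ratio of 57.3 in favour of MEFs with a 95% counting interval of 19.3 to 280.0. Its fitted log2 fold change was -5.60 ± 0.80 (SE, edgeR adjusted p = 0.000196). Ifi204 had 5.66, 9.15, 13.2 and 16.7 CPM in MEFs a to d and 0.325, 0.341 and 0.236 CPM in mESCs a to c, with -5.14 ± 0.56 (SE, edgeR adjusted p = 2.84e-05). Ifi205 had 21, 12, 9 and 18 counts in MEFs and 0, 0 and 1 in mESCs, a ratio of 50.3 in favour of MEFs with a 95% counting interval of 8.69 to 2020.0. Its fitted log2 fold change was -5.20 ± 0.95 (SE, edgeR adjusted p = 0.00108). Both Ifi204 and Ifi205 share transcript sequence with Ifi211, so their counts are uncertain in part, while Aim2 shares 0.742% of its 50-base sequences with other genes.

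**Figure D4:**
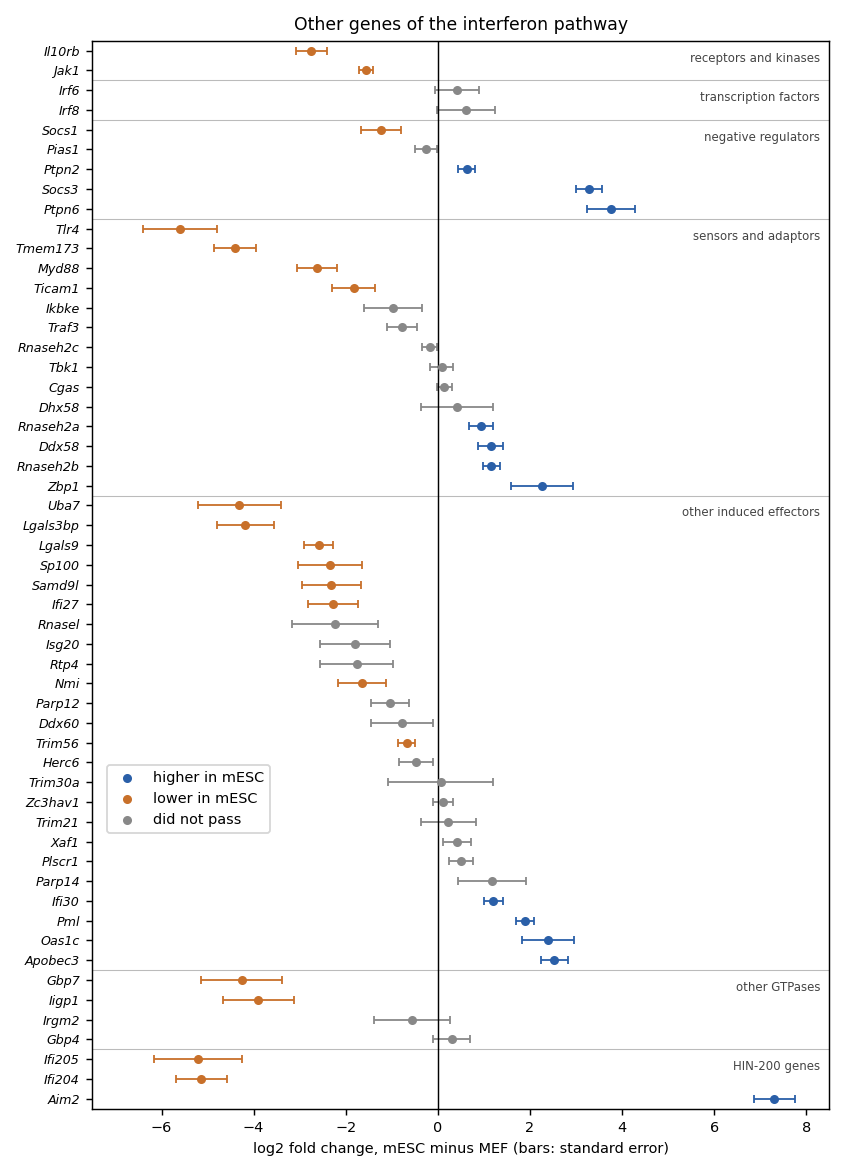
Log2 fold change (mESC minus MEF) with standard errors from edgeR's fit for the 54 tested genes of the wider list, grouped by role and coloured by whether they were higher, lower or did not pass. Receptors and kinases lie on the lower side in both genes tested, while the other groups with calls hold called genes on both sides, apart from the other GTPases, whose calls are on the lower side alone, with Aim2 at 7.31 and Tlr4 at -5.60 as the extremes.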

How the data were processed

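RNA-seq gene counts of 4 MEF and 3 mESC libraries were used. The authors used STAR for alignment to mm10, removed duplicates by molecular identifier (Je) and assigned uniquely mapped reads to exons by featureCounts, and the deposited values are whole-number counts that were not normalized. The strand setting and the annotation release are not given in the sources used here. The extraction note in the labels speaks of blood stem cells of young and aged mice, although the samples are labelled as MEFs and mESCs.

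Differences were tested with edgeR 4.0.16 (R 4.3.3) over all 7 libraries, with TMM scaling, filterByExpr, the quasi-likelihood test and Benjamini-Hochberg adjustment over all tested genes at 0.05. CPM used TMM-scaled library sizes, and log2CPM a prior count of 2. In a simulation of 16580 genes, edgeR found 189 of 200 that had been shifted by 2 on the log2 scale, with 8 false calls. Every simulated gene had the same spread between libraries, set by a dispersion of 0.05. The effectors spread more over MEF libraries than the median of all genes, so these numbers need not hold for them. Intervals and floors cover counting error only. The alternatives were DESeq2 1.42.0, other scalings and filters, a test against a fold change of 2 and leaving out each library. The bounds of Ifit3 and Oas2 without MEF c were added after seeing the data.

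The members and lists were chosen with earlier results of these data known. Values in every library are given for up to 3 members per role with the largest called change, members higher in mESCs, and members whose libraries of a cell type differ by more than 4 times with all above 3 counts. On the wider list these are Jak1, Socs1, Socs3, Ddx58, Cgas, Tmem173 and the 3 largest called changes in each direction. Positions are from GENCODE M21 on GRCm38 and promoters from RefSeq. Mx1, Mx2, Oas2, Usp18 and Parp9 had no entry in the promoter table. A gene of the pathway was left out of the wider list and is not reported here.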

Additional observations from a re-analysis of the deposited data

Results flagged for a closer look

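In 46 members with counts, the highest or lowest of the 4 MEF libraries was compared with the other MEF libraries, and 5 stood apart from the rest by Dixon's ratio at its 95% critical value, where chance gives about 1 in 20, or 2.3. Stat2 was at 6.43 CPM in MEF a and between 15.9 and 16.6 CPM in the other MEF libraries. Samhd1 was at 34.2 CPM in MEF d and between 56.8 and 57.8 CPM in the others. Oas3 was at 1.75 CPM in MEF d, which is 11 counts, and between 0.24 and 0.457 CPM in the others. Oas2 was at 0.479 CPM in MEF c, from 4 counts, and Mx2 at 0.959 CPM in MEF c, from 8 counts, and both were at 0 in the other MEF libraries. With the other 3 libraries at 0 the ratio is 1 whatever the count, so Oas2 and Mx2 are not to be read against that chance number.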

How the results depend on the processing

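No paired analysis was possible because the count columns do not give the sample numbers of the labels. Testing against a fold change of 2 left 4 members higher and 10 lower in mESCs, 4 effectors lower, and 6 and 13 genes of the wider list higher and lower. When 1 library was left out in turn, between 4 and 7 members were higher (4 without MEF b, mESC a or mESC b), between 16 and 19 were lower, and the median log2 fold change ran from -1.20 to -0.70, the lowest value coming without mESC c. The log2 fold changes that turned sign in these fits were those of 5 members that had not passed. Igtp ran from -0.26 to 1.26, Cmpk2 from -1.67 to 0.62, Parp9 from -0.71 to 0.043, Rsad2 from -0.12 to 0.58 and Usp18 from -0.63 to 0.17. Of the 25 called members, 14 kept their call and direction in every alternative that tested them, 10 lower and 4 higher. Scaling by library size alone moved the median over all tested genes to 0.32 and the calls to 5180 higher and 3345 lower, from 3785 and 4153. Of the members, 8 were then higher and 16 lower, at a median of -0.51, and Eif2ak2 and Samhd1 lost their calls (edgeR adjusted p = 0.168 and 0.0769). With no filter beyond 1 count 46 members were tested, 22 of them lower and 6 higher. Members with few counts, such as Ifit2, Oas1a and Oas2, are limited by depth.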

Other observations

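Trim30a, an interferon-induced ubiquitin ligase of the wider list singled out after its values were seen, was at 46.4, 0.682 and 1.06 CPM in mESCs a to c and at 14.6, 3.51, 35.7 and 7.63 CPM in MEFs a to d, so that mESC a stood apart from the other mESC libraries. Apobec3, a deaminase that acts on retroviruses, and Pml, a protein of nuclear bodies, were also chosen after their values were seen. Apobec3 was at 9.11, 4.57, 10.8 and 13.5 CPM in MEFs a to d and 57.6, 55.6 and 51.7 CPM in mESCs a to c, with a log2 fold change of 2.53 ± 0.30 (SE, edgeR adjusted p = 5.07e-05). Pml was at 18.4, 19.1, 14 and 21.5 CPM in MEFs a to d and 77.2, 66 and 59.8 CPM in mESCs a to c, with 1.89 ± 0.19 (SE, edgeR adjusted p = 1.81e-05).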
